A study of Mus musculus with 6 samples.

Results

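The adipogenic transcription factors Cebpa, Cebpb, Cebpd and Pparg and the lipid storage genes Lpl, Fabp4, Dgat1, Dgat2, Pnpla2 and Lipe were followed in primary mouse myoblasts with and without a short hairpin RNA (shRNA) against LncMyoD. These 10 genes were taken from 18194 with a probe set named for 1 gene, and every probe set whose annotation gave exactly 1 of these symbols was used, which made 20 probe sets of 45101 on the array. The genes were selected on their differences between the shRNA and control arrays, seen in earlier results of the same comparison, so their own values are given as a description with no test. Of the 20 probe sets, 11 passed the filter on low signal, and they covered 7 of the 10 genes. The other 9 had a mean log2 signal below 6.5, among them all 7 probe sets of Pparg, Fabp4 and Lipe.

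The series holds 6 Affymetrix arrays of total RNA, 3 of control myoblasts and 3 of myoblasts that received LncMyoD shRNA. All samples are primary mouse myoblasts with a labelled age of 21 days. The hairpins against LncMyoD, a long non-coding RNA encoded near Myod1, were carried by lentivirus made from Tet-pLKO-puro, a vector for inducible expression. The labels do not say what the controls received, whether an inducer was given, how many hairpins were used, or whether the cells stood in growth or in low-serum differentiation medium when harvested. The replicates are called biological, but no separate animals or cultures are named, and p-values therefore cover the spread among these 6 arrays alone, part of which may be technical. In bulk RNA, fewer cells of a type and less RNA per cell cannot be told apart.

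Fat cells form when C/EBPβ and C/EBPδ, basic leucine zipper transcription factors, come on early and are followed by C/EBPα and the nuclear receptor PPARγ, which keep each other on and switch on genes of fat uptake and storage. Lipoprotein lipase, encoded by Lpl, frees fatty acids from circulating lipoproteins, a chain of acyltransferases ending in DGAT1 and DGAT2 builds triacylglycerol, and adipose triglyceride lipase (Pnpla2) and hormone-sensitive lipase (Lipe) break it down again. Muscle cells also store fat in droplets and burn it, and C/EBPβ is known as a factor of muscle stem cells that holds back differentiation.

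The RefSeq table of mouse promoters (GRCm38.p6) held windows for 5 of the 10 genes. The 250 bases upstream of the annotated start are printed for 3 of them, because Cebpa had the largest increase of the 10 genes, Pnpla2 fell and the bright probe set of Cebpb moved little. Capitals mark matches to 7 short motifs searched on both strands.
Cebpa, chr7:35119043-35119292, plus strand: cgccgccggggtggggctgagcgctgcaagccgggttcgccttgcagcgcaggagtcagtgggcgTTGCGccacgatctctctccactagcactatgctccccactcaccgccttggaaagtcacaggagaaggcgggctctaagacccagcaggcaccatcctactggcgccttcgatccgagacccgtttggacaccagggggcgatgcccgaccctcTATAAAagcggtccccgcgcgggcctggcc
Cebpb, chr2:167688665-167688914, plus strand: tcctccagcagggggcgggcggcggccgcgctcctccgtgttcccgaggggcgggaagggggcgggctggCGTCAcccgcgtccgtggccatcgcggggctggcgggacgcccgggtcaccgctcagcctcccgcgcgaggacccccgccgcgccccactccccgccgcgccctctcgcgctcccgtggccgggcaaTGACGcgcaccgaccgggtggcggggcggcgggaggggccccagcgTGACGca
Pnpla2, chr7:141454938-141455187, plus strand: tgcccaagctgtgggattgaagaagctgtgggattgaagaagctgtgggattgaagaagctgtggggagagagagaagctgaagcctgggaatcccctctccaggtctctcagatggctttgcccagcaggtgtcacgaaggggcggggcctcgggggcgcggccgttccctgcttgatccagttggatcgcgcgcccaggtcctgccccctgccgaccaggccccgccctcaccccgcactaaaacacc

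In the Cebpa window the core of a C/EBP site, TTGCG, begins 185 bases before the start, and a TATA box, TATAAA, begins 30 bases before it. The Cebpb window holds 3 copies of TGACG, the core of a cAMP response element, at 180, 53 and 7 bases before the start, the first of them on the minus strand. In the Pnpla2 window there was no match to any of the 7 motifs. TTGCG occurred in 14.5% of 32851 promoter windows of this length, TATAAA in 12.4% and TGACG in 17.8%. The other motifs searched were the full C/EBP palindrome TTGCGCAA (0.164% of windows), which contains TTGCG, the nuclear receptor core AGGTCA (14.0%), the myogenic E-box CAGCTG (13.0%) and CCAAT (33.8%).

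Across all 27022 tested probe sets, 53.9% passed limma's threshold (adjusted p under 0.05), 30.4% higher and 23.5% lower in the shRNA arrays. In 59.5% of them the control and shRNA arrays did not overlap, 33.6% higher and 25.9% lower. Of the 11 tested probe sets of these genes, 8 were past the threshold, 5 higher and 3 lower, and in 8 the groups did not overlap, 5 higher and 3 lower. The 8 of the first count are not all among the 8 of the second. Since the genes were chosen on this comparison, nothing is read from these counts. RNA integrity, read as the log2 ratio of 3' over 5' probe sets of control transcripts, differed in the same arrays. It was 0.51 ± 0.018 in controls and 0.55 ± 0.017 in shRNA arrays for actin, and 0.14 ± 0.045 and 0.23 ± 0.038 for GAPDH (SD, n = 3 each). Both transcripts gave a two-sided exact permutation p of 0.1, the smallest that 20 assignments allow. The part of this shift in the differences below was not tested.

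**Figure D1:**
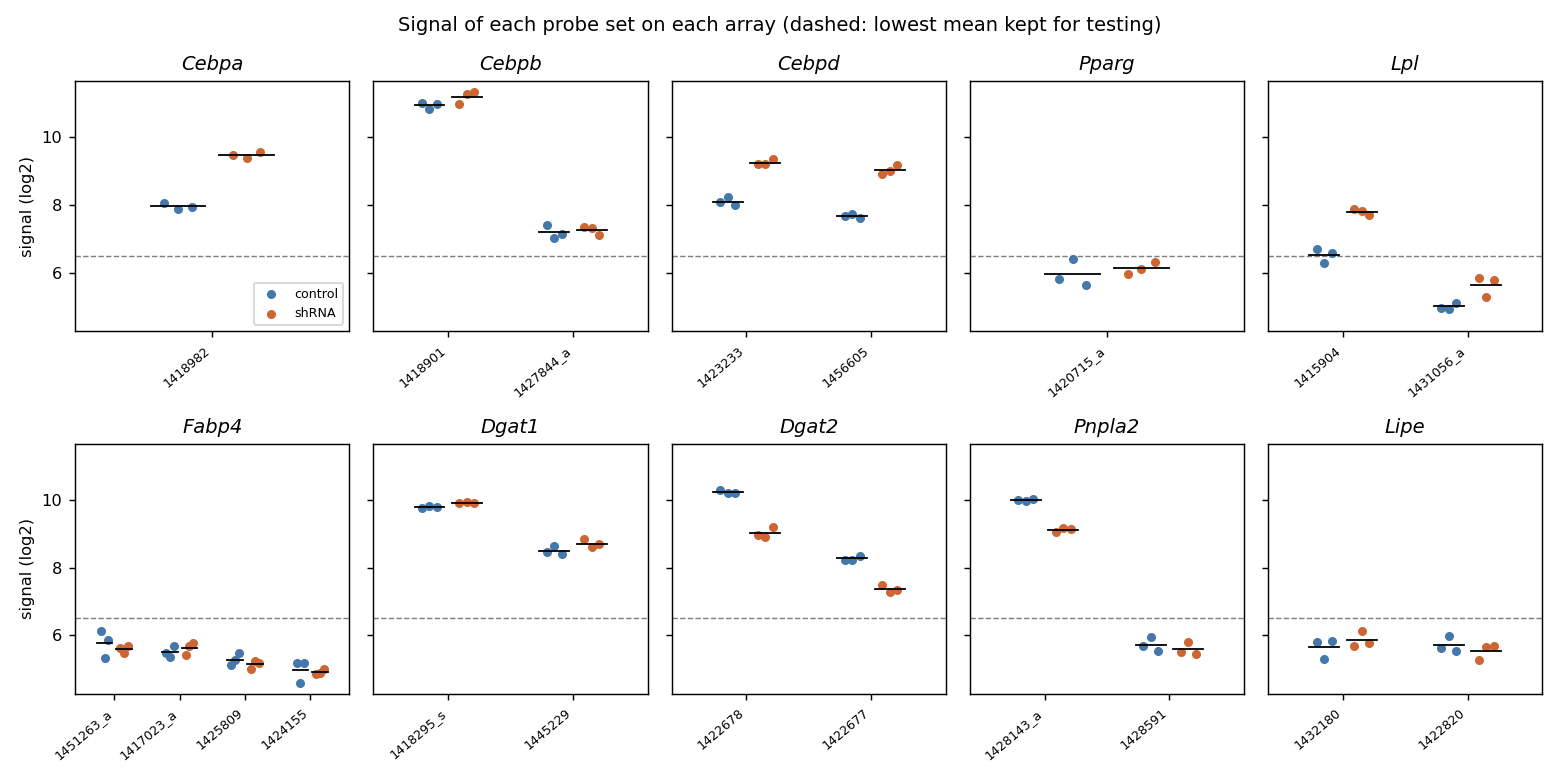
Log2 signal of each of the 20 probe sets (horizontal axis, by identifier) on each control array (blue) and shRNA array (orange), with the group mean as a bar and the lowest mean kept for testing, 6.5, as a dashed line. Both groups of Pparg, Fabp4 and Lipe lie below that line, whereas Cebpa, Cebpd and the brighter probe set of Lpl are higher, and Dgat2 and the brighter probe set of Pnpla2 lower, on every shRNA array.

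C/EBPα and C/EBPδ transcripts were higher in the shRNA arrays. The C/EBPβ transcript differed less, by 0.25 on its brighter probe set and 0.061 on the other. Cebpa, which drives terminal fat cell differentiation and cell cycle exit, had log2 signals of 8.04, 7.88 and 7.95 on the control arrays and 9.46, 9.39 and 9.56 on the shRNA arrays. The groups were 1.35 apart at their closest. The difference of 1.51 (limma SE 0.082), or 2.85-fold, was reached in size by 0.618% of tested probe sets.

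Cebpd, an early factor of fat cell formation that also responds to glucocorticoids and cytokines, was read by a pair of probe sets. On the brighter, control arrays stood at 8.07, 8.22 and 8.0 and shRNA arrays at 9.20, 9.19 and 9.34. On the other they stood at 7.67, 7.74 and 7.61 against 8.92, 9.01 and 9.16. No array of a group reached the other group on either probe set. The differences were 1.15 (limma SE 0.085), or 2.21-fold, and 1.36 (SE 0.091), or 2.57-fold.

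Cebpb had control signals of 11.01, 10.81 and 10.97 and shRNA signals of 10.96, 11.27 and 11.31 on its brighter probe set. The shRNA array 1 lay within the controls, the other 2 above them, and the difference was 0.25 (limma SE 0.083), or 1.19-fold. Its dimmer probe set stood at 7.40, 7.03 and 7.14 in controls and 7.34, 7.32 and 7.10 in shRNA arrays, a difference of 0.061 (SE 0.12) with overlapping groups. Without shRNA array 2 or 3 or control 2 the difference of the brighter probe set was 0.21, 0.18 or 0.19, and with centred arrays 0.19. With each array left out in turn it ran from 0.18 to 0.36.

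Pparg, the nuclear receptor that controls fat cell identity, had 1 probe set with signals of 5.82, 6.40 and 5.64 in controls and 5.96, 6.11 and 6.33 in shRNA arrays. The groups overlapped, with a difference of 0.18 against SDs of 0.40 and 0.19. This probe set was below the level kept for testing in both groups, so a change of Pparg was not measurable here, and whether its signal lay above background was not tested.

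Transcripts of proteins that pair with or act on the C/EBP factors differed in both directions. Across all 12408 tested genes, each read by its brightest probe set, 58.5% passed limma's threshold, 35.7% higher and 22.8% lower, with a median difference of 0.046. Of 5 tested C/EBP relatives, 2 rose, 2 fell and 1 did not pass (median -0.087). Cebpg, a short family member that pairs with the others, rose from 10.59 ± 0.11 to 11.29 ± 0.084 (SD, n = 3), or 1.63-fold (limma adjusted p = 1.01e-06), and its other 2 tested probe sets rose as well. Trib1 and Trib2, pseudokinases that steer C/EBPα to degradation, went opposite ways. Trib1 rose from 9.47 ± 0.12 to 10.38 ± 0.13, 1.88-fold, on 1 of its tested probe sets, while another did not pass. Trib2 fell from 8.87 ± 0.047 to 7.74 ± 0.027, 2.18-fold (limma adjusted p = 1.5e-07). Ddit3, encoding the stress factor CHOP that blocks C/EBP binding, fell by 0.17 (SE 0.043), and a second probe set did not pass.

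Other regulators of fat cell formation rose in 9 and fell in 10 of 30 tested cases, while 11 stayed short of the threshold (median -0.0069). With 1 array left out, 7 to 11 rose and 9 to 10 fell. Ebf1, counted as risen, had a control mean of 6.18, below 6.5, and overlapping groups. The calls of Cited2 (0.1) and Klf6 (-0.1) were lost under several alternatives. Rxra, the partner of PPAR receptors on DNA, rose by 0.34 (SE 0.048), whereas the other PPAR receptors Ppara (-0.51, SE 0.14) and Ppard (-0.65, SE 0.11) fell. The shRNA mean of Ppara, 6.26, lay below 6.5. Ebf3, a helix-loop-helix factor, rose by 0.65 (SE 0.038) on its brightest probe set, and all 3 of its tested probe sets rose. Gata3, which represses fat cell formation, rose from 8.51 ± 0.28 to 9.30 ± 0.070. Klf5 (-0.60, SE 0.039) and Klf4 (-0.37, SE 0.046), zinc finger factors that act early in fat cell formation on Pparg and Cebpb, fell on every probe set tested. Stat5b, a transcription factor of growth hormone signalling, fell 1.86-fold, from 10.90 ± 0.055 to 10.01 ± 0.063 (limma adjusted p = 3.44e-08). Nr3c1, the glucocorticoid receptor, rose by 0.28 (SE 0.063), with 1 of its 5 other tested probe sets not past the threshold. Stat3, which conveys cytokine signals, fell by 0.47 on the log2 scale (SE 0.082), with 1 of 2 others not past it.

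**Figure D2:**
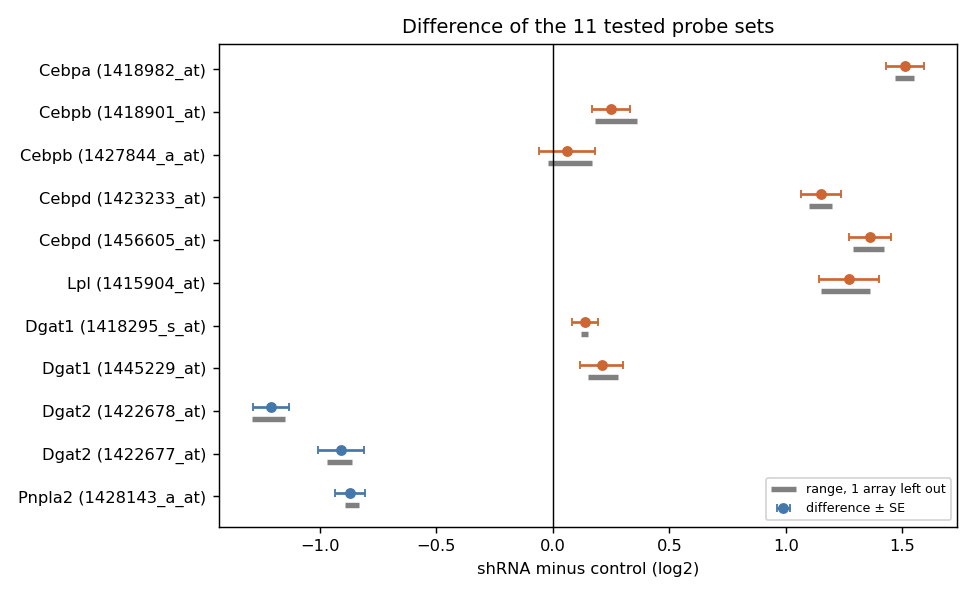
Difference between shRNA and control arrays (log2, points with limma SE) for the 11 tested probe sets, with the range of the difference when 1 array at a time was left out as a grey bar. The differences run from -1.21 for Dgat2 to 1.51 for Cebpa, and of the ranges only that of the dimmer Cebpb probe set, -0.019 to 0.17, crosses 0.

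Fatty acid uptake was represented by Lpl and Fabp4. Lpl had signals of 6.71, 6.29 and 6.59 on the control arrays and 7.87, 7.83 and 7.69 on the shRNA arrays of its brighter probe set. All shRNA arrays were above all controls, by 1.27 on average (limma SE 0.13), or 2.41-fold. The control mean of 6.53 lay at the lower end of the signals tested, so the size of this difference rests on a dim control signal. The dimmer probe set was left out of the test. It read 4.97, 4.94 and 5.12 in controls and 5.85, 5.30 and 5.80 in shRNA arrays, 0.64 higher with no overlap.

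Fabp4, the fatty acid carrier of fat cells, was dim on all 4 of its probe sets, with every array between 4.61 and 6.14. The differences were -0.17, 0.12, -0.14 and -0.066, and the groups overlapped in each.

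Of 15 other tested genes of lipid uptake and lipoprotein lipase handling, 4 rose, 7 fell and 4 did not pass (median -0.058). The call of Fabp5 (-0.19, SE 0.064), counted as fallen, was lost under several alternatives. Slc27a1, a fatty acid transporter of the muscle membrane, rose from 9.19 ± 0.082 to 10.53 ± 0.053, 2.53-fold (limma adjusted p = 4.47e-09), and its second probe set rose too. The lipoprotein receptor Scarb1 rose by 0.93 (SE 0.066) and the heparan sulfate proteoglycan Sdc1 by 0.59 (SE 0.045), though 1 of the 4 tested probe sets of Sdc1 did not pass. Cd36, a fatty acid translocase, fell by 0.49 on the log2 scale (SE 0.073) on its brightest probe set, and all 3 probe sets fell. Fabp3, the fatty acid carrier of muscle, fell by 0.75 on that scale (SE 0.047), while its other probe set did not pass. Sel1l, which helps lipoprotein lipase mature in the endoplasmic reticulum, fell by 0.35 (SE 0.034) on its brightest probe set, and all 5 fell. Cavin1, a coat protein of the membrane pits called caveolae, fell 2.12-fold, from 12.49 ± 0.048 to 11.41 ± 0.058 (limma adjusted p = 1.53e-09). Of its 3 tested probe sets, 2 fell past the threshold. Angptl4, a secreted inhibitor of lipoprotein lipase, was left out as low, with control arrays at 5.39 to 5.48 and shRNA arrays at 5.56 to 5.79.

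The acyltransferases that close triacylglycerol synthesis parted. Dgat2, which acts at the endoplasmic reticulum and on droplets, had control signals of 10.28, 10.18 and 10.19 and shRNA signals of 8.96, 8.89 and 9.18 on its brighter probe set. On the dimmer one the controls read 8.23, 8.23 and 8.35 and the shRNA arrays 7.49, 7.27 and 7.33. Both probe sets were lower on all shRNA arrays, by 1.21 on the log2 scale (limma SE 0.078), or 2.31-fold, and by 0.91 (SE 0.098), or 1.87-fold.

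Dgat1, an unrelated enzyme for the same reaction, stood at 9.75, 9.81 and 9.78 in controls and 9.90, 9.94 and 9.90 in shRNA arrays. The groups did not overlap but were only 0.09 apart, and the difference of 0.14 (limma SE 0.056) fell to 0.072 under median centring or quantile normalization. Its other probe set read 8.45, 8.64 and 8.39 against 8.83, 8.60 and 8.68, overlapping, with a difference of 0.21 (SE 0.093).

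Earlier steps of the route moved in both directions: of 19 other tested genes of triacylglycerol synthesis 9 rose, 7 fell and 3 did not pass (median -0.0013). Pck1, counted as fallen (-0.44, SE 0.13), had a shRNA mean of 6.48, below 6.5. Its call was lost without shRNA array 1 (-0.33, limma adjusted p = 0.0562). The 3 acyltransferases that start the chain, Gpam (0.19, SE 0.040), Gpat3 (0.39, SE 0.039) and Gpat4 (0.54, SE 0.060), all rose, although a second probe set of Gpam did not pass. In the next step Agpat2 rose by 0.58 (SE 0.10), while Agpat1 (-0.77, SE 0.059), Agpat4 (-0.49, SE 0.074) and Agpat3 (-0.18, SE 0.038) fell, each on all of its tested probe sets. Among the lipins, phosphatases that make diacylglycerol, Lpin1 (0.43, SE 0.052) and Lpin2 (0.50, SE 0.042) rose on all tested probe sets, and Lpin3 fell 1.96-fold, from 10.42 ± 0.078 to 9.45 ± 0.050 (limma adjusted p = 4.77e-08). Acsl5 rose by 0.27 (SE 0.055). It encodes an enzyme that attaches coenzyme A to fatty acids. Of its relatives, Acsl4 (-0.19, SE 0.048) and Acsl6 (-0.28, SE 0.053) fell, but each had another probe set that rose. The rise of Acsl3 (0.15, SE 0.036), which neither of its 2 other tested probe sets showed past the threshold, was not called with centred arrays (0.083, limma adjusted p = 0.0566), nor that of Agpat5 (0.13) with centred arrays (0.068, 0.15) or with shRNA array 2 (0.11, 0.101) or 3 (0.13, 0.0645) or control 2 (0.12, 0.0727) or 3 (0.10, 0.101) left out.

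**Figure D3:**
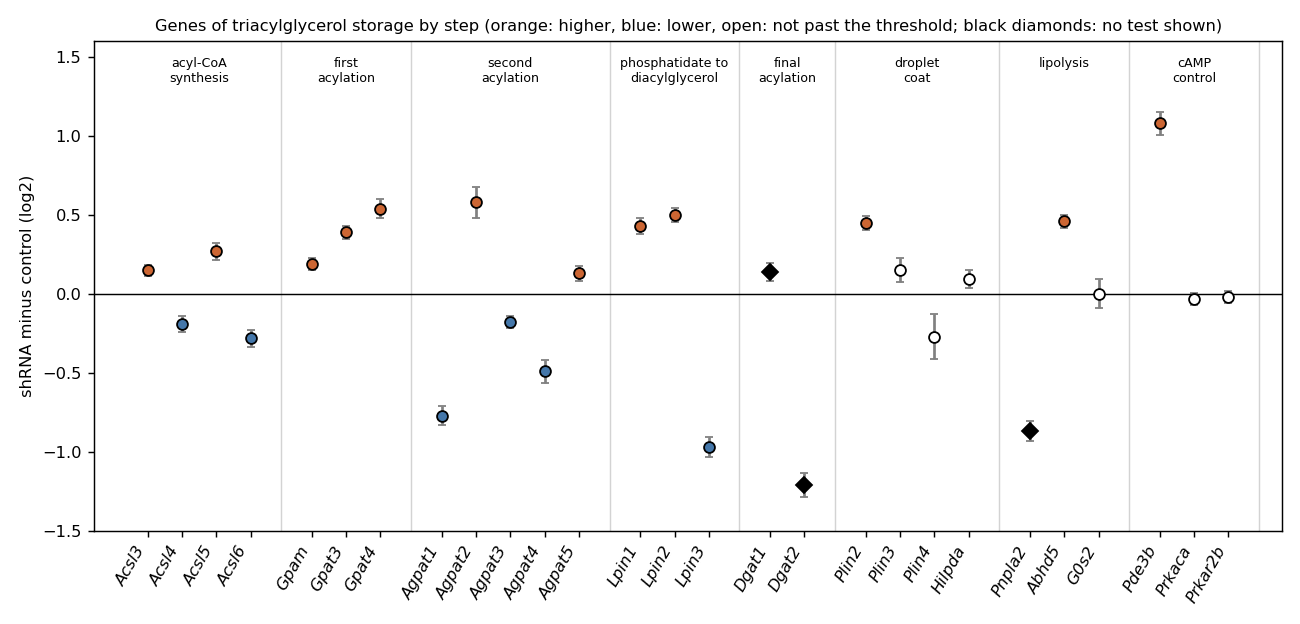
Difference between shRNA and control arrays (log2, with limma SE) for genes of triacylglycerol storage, in the order of the steps from fatty acid activation to lipolysis and its control by cAMP. Orange marks genes that rose, blue genes that fell, open circles genes not past the threshold, and black diamonds Dgat1, Dgat2 and Pnpla2, shown without a test; Dgat2 (-1.21) and Pde3b (1.08) lie at the ends.

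On the side of lipolysis, Pnpla2, the lipase that removes the first fatty acid from stored triacylglycerol, had control signals of 9.98, 9.95 and 10.01 and shRNA signals of 9.04, 9.16 and 9.14. The shRNA arrays were lower by 0.87 on the log2 scale (limma SE 0.063), or 1.82-fold, with 0.79 between the groups at their closest. A second probe set was too dim to test, at 5.69, 5.95 and 5.54 against 5.50, 5.82 and 5.44, and its groups overlapped (-0.14).

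Lipe, whose enzyme acts on the diacylglycerol that Pnpla2 leaves, was dim on both probe sets. One read 5.80, 5.30 and 5.85 in controls and 5.70, 6.12 and 5.79 in shRNA arrays, the other 5.63, 5.98 and 5.55 against 5.28, 5.67 and 5.68. The groups overlapped on both, with differences of 0.22 and -0.18 in opposite directions.

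Among 20 other tested genes of the lipid droplet and of lipolysis 7 rose, 1 fell and 12 did not pass (median 0.14). The call of Rab18 (0.12, SE 0.039), counted as risen, was lost under several alternatives. Abhd5, the protein activator of the Pnpla2 lipase, rose from 11.41 ± 0.030 to 11.87 ± 0.018 on the brighter of 2 probe sets, both of which passed (limma adjusted p = 7.68e-07). Its inhibitor G0s2 was at 9.04 in both groups (difference 0.0024, SE 0.093). Plin2, the droplet coat protein of cells other than fat cells, rose from 11.41 ± 0.056 to 11.86 ± 0.041 (limma adjusted p = 2.36e-06). Pde3b, a phosphodiesterase through which insulin restrains lipolysis, rose 2.11-fold, from 8.19 ± 0.055 to 9.27 ± 0.031 (limma adjusted p = 1.03e-07). Lipa, the acid lipase of lysosomes, rose by 0.36 (SE 0.073) on its brightest probe set, and all 3 probe sets rose. The gene that fell was Pnpla3, a lipase-like protein of droplets (-0.27, SE 0.10, limma adjusted p = 0.037). It was not called with control 2 left out (-0.26, limma adjusted p = 0.0912), nor without control 3 (-0.19, 0.156), shRNA array 1 (-0.25, 0.101), 2 (-0.30, 0.0582) or 3 (-0.28, 0.0767), and with no filter (0.0538).

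Of 14 tested genes known as PPAR targets, 8 fell, 3 rose and 3 did not pass (median -0.16). The list shares Fabp3, Cd36 and Plin2 with those above. The call of Slc25a20 (-0.1, SE 0.039), counted as fallen, was lost under several alternatives, among them no filter (limma adjusted p = 0.0657). Besides Fabp3 and Cd36, those that fell on the log2 scale included Acadvl by 0.54 (SE 0.046), Acadm by 0.49 (SE 0.047), Acaa2 by 0.44 (SE 0.040) and Hadha by 0.29 (SE 0.048), enzymes of mitochondrial fatty acid oxidation. Other genes of that route did not pass, Acadl at 0.043 (SE 0.036) and Cpt1a at 0.082 (SE 0.056), and both other tested probe sets of Cpt1a rose. Besides Plin2, those that rose were Cpt2, an acyltransferase of the inner mitochondrial membrane (0.25, SE 0.053), on 1 of 2 tested probe sets, and Pdk4, a kinase that spares glucose (0.18, SE 0.037). Adipoq, the fat cell hormone adiponectin, and Plin5 and Cyp4b1 were left out as low.

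Genes known to respond to C/EBPβ or C/EBPδ were mostly dim. Of 19 with a named probe set 10 were left out as low, among them Il6, Lcn2 and Ccl2. Of 9 tested, 4 rose, 2 fell and 3 did not pass (median -0.061). Of these 9, 3 passed the filter on low signal through 1 group alone. Cd14, which rose, and Orm1, which fell, were among them, so nothing is read from these counts. Those that rose were Ptgs2, the inducible cyclooxygenase (0.75, SE 0.057), the metallothioneins Mt1 (0.71, SE 0.038) and Mt2 (0.74, SE 0.081), which bind metals and also answer to zinc and glucocorticoids, and Cd14 (1.07, SE 0.14). The control mean of Cd14, 6.12, lay below 6.5, so the size of its change is not settled. Orm1 (-0.38, SE 0.12), an acute-phase protein, was no longer called when control 2 was left out (-0.36, limma adjusted p = 0.0542), and its shRNA mean of 6.41 was also below 6.5. Sod2, mitochondrial superoxide dismutase (-0.13, SE 0.041), was not called with control 1 left out (-0.11, limma adjusted p = 0.0506), with shRNA array 3 left out (-0.10, 0.0856) or with no variance trend (0.0802), and 1 of its 3 other probe sets did not pass.

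Counting each gene of the 7 lists once, there were 109 tested genes, of which 37 rose and 35 fell, with a median difference of -0.0092. With the arrays centred on their medians the counts were 33 higher and 40 lower, and over all genes 3627 higher and 3663 lower in place of 4426 and 2832. Quantile normalization gave 37 higher and 36 lower on the lists and 4243 and 3216 over all genes. On the lists the balance of directions thus changed with centring and little with quantile normalization. Over all genes it moved under both, less with quantile normalization. Centring moved the median over all genes from 0.046 to -0.018, and of the tested probe sets of the 10 genes it turned the direction of the dimmer one of Cebpb (-0.0031).

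**Figure D4:**
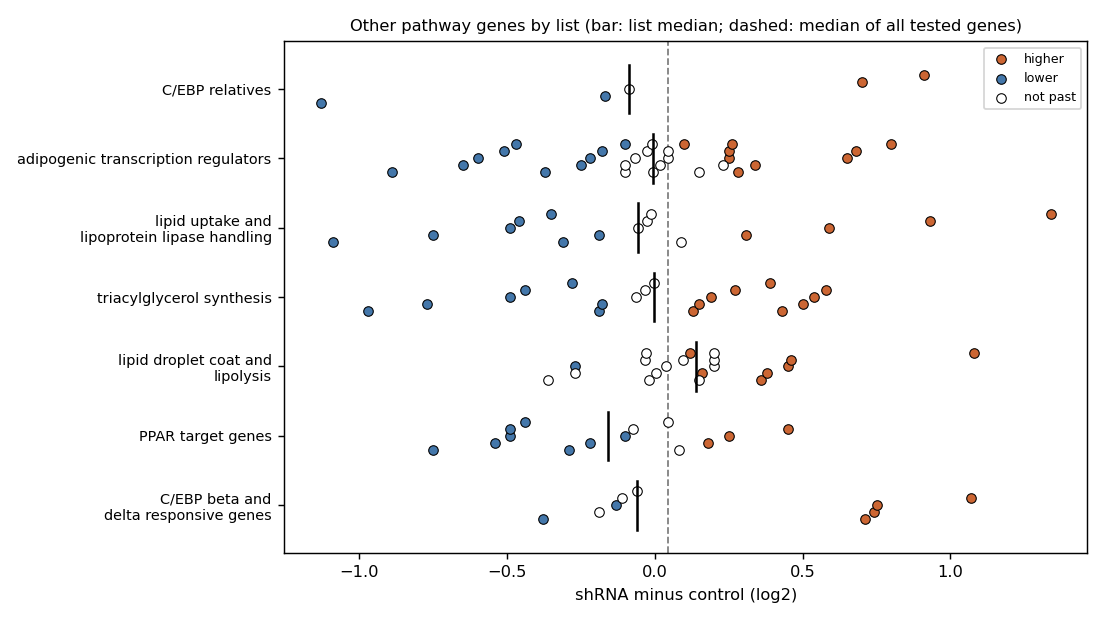
Difference between shRNA and control arrays (log2) for each tested gene of the 7 pathway lists, without the 10 genes above; orange rose, blue fell and open circles did not pass the threshold. A black bar marks each list's median, from -0.16 for PPAR targets to 0.14 for the droplet and lipolysis list, and the dashed line marks the median over all tested genes, 0.046.

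The cells expressed muscle genes strongly, and most markers of fat cells were dim. Of 10 myoblast and muscle markers all were tested, 3 rose, 4 fell and 3 did not pass, and their mean log2 signal ran from 12.38 to 12.47 on control arrays and 12.38 to 12.44 on shRNA arrays. Pax7, which marks muscle stem cells, rose by 0.66 (SE 0.051), Myf5, a myogenic factor of precursors, by 0.62 (SE 0.11) and Cdh15, M-cadherin, by 0.40 (SE 0.037), while Ckm, muscle creatine kinase, fell 2.66-fold. The fusion protein Mymk fell by 0.24 (SE 0.033) and Myog, myogenin, by 0.13 (SE 0.039) on the log2 scale, the latter not without a variance trend (limma adjusted p = 0.0799). Of 12 markers of mature fat cells 9 had a named probe set (Plin1, Cfd and Adrb3 are not analysed here), 4 were tested and 0 passed in limma's test, with 0 at an unadjusted p under 0.05. Adipoq lay between 5.27 and 5.42 on control arrays and 5.15 and 5.33 on shRNA arrays, Cidec, a droplet fusion protein, between 5.34 and 5.44 and between 5.32 and 5.77. Lep (4.71 to 4.95 against 4.48 to 4.63) and Cidea (5.18 to 5.42 against 4.78 to 5.15) were lower on the shRNA arrays without overlap, Adig was at 5.81 to 6.11 and 5.88 to 6.33, and all 5 were left out as low. The 4 tested were Plin4 (-0.27, SE 0.14), Retn (0.18, SE 0.13), Thrsp (-0.064, SE 0.084), of which another probe set fell, and Ucp1 (-0.016, SE 0.13). The summed linear signal of the 9 was 839 to 873 in controls and 747 to 878 in shRNA arrays.

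Other cell types that can express these genes were followed by their own markers. Of 10 markers of fibro-adipogenic progenitors and fibroblasts, the cells of muscle that can turn into fat cells, 9 had a named probe set and 3 were tested. Pdgfra, a growth factor receptor of these cells, rose from 6.63 ± 0.15 to 7.51 ± 0.13, 1.85-fold (limma adjusted p = 4.68e-05), while Pdgfrb (-0.043) and Tcf7l2 (0.045) did not pass. The control mean of Pdgfra lay at the lower end of the signals tested, so the size of its rise rests on a dim control signal. The other 6 were left out as low and differed in both directions, Cd34 by 0.23, Dcn by 0.20, Dpt by 0.012, Thy1 by -0.089, Lum by -0.14 and Osr1 by -0.20, with no test. The summed signal of the 9 ran from 6800 to 7330 in controls and from 7110 to 7520 in shRNA arrays, most of it from Tcf7l2. Macrophages and other leukocytes, which can express Lpl and Fabp4, had 6 of 10 markers tested, of which 2 rose, 0 fell and 4 did not pass. Those that rose were Cd14 and Cd68 (0.33, SE 0.12). Both had control means below 6.5 (6.12 and 6.4) and were tested only through their shRNA signal, so nothing is read from this count. Cd68 was not called with centred arrays (0.27, limma adjusted p = 0.0683), without control 2 (0.32, 0.0916) or 3 (0.28, 0.119), or without shRNA array 1 (0.33, 0.0606), 2 (0.32, 0.0791) or 3 (0.35, 0.0656). Ptprc, the defining leukocyte marker, lay between 4.90 and 5.19 in controls and 4.87 and 5.26 in shRNA arrays, and the summed signal of the list ran from 908 to 971 and from 905 to 1110. Of 10 endothelial markers 1 was tested, Egfl7, and 0 passed in limma's test (-0.13, SE 0.10; another of its 4 tested probe sets rose), with 0 at an unadjusted p under 0.05. The summed endothelial signal was 847 to 972 in controls and 816 to 940 in shRNA arrays. The part of these cell types in the differences of Cebpa, Cebpd and Lpl was not tested.

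The 12407 other tested genes were ranked by how close their pattern over the 6 arrays was to that of Cebpa, after each gene was set to its control mean. With symbols in the form of clone or model names passed over, the closest were Tgfbr3, Slc19a2 and Zic1. The control mean of Tgfbr3, 6.52, lay at the lower end of the signals tested. Tgfbr3 encodes a co-receptor of the transforming growth factor beta family, Slc19a2 a thiamine transporter and Zic1 a zinc finger transcription factor. Their root mean square distances from Cebpa were 0.0484, 0.0742 and 0.0745 on the log2 scale, and their differences between the groups were 1.46, 1.50 and 1.53. With 6 arrays in 2 groups, a like pattern mainly means a difference of like size.

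**Figure D5:**
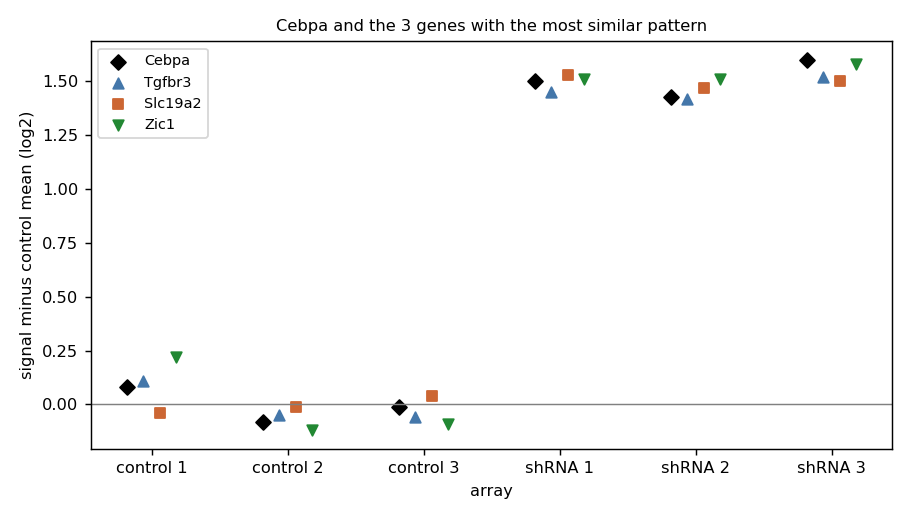
Log2 signal minus the gene's control mean on each of the 6 arrays for Cebpa and the 3 genes with the most similar pattern, Tgfbr3, Slc19a2 and Zic1. Symbols in the form of clone or model names were passed over. Each gene stands near 0 on the control arrays and about 1.5 higher on the shRNA arrays.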

How the data were processed

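Total RNA was measured on Affymetrix Mouse Genome arrays, 3 control and 3 shRNA. The authors deposited 1 table of normalized values, taken here as log2 signals. The scale was read from the values (4.48 to 14.6), and all 6 arrays share a median of 7.23. Per the submitters' processing notes, the summary programs PLIER and MAS5 were used, for purposes the sources used here leave out. No scanner file or detection call entered the work, an array has no read depth, and 3 arrays per group limit the precision.

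Gene names come from the platform annotation held by GEO: 34958 of 45101 probe sets had 1 symbol, 932 several and 9211 were unnamed here. Of the first, 34754 had a gene identifier in the GRCm38.p6 table, and 0 symbols changed. The 64 control probe sets and the dimmest 40% of the rest by mean signal (18015) were left out, which kept means of 6.5 or more. The other 27022 were tested as shRNA minus control with limma 3.58.1 in R 4.3.3 (lmFit, eBayes with a trend, no covariates), with Benjamini-Hochberg adjustment over all of them and a threshold of 0.05. A gene stood as its brightest tested probe set, those ending in _x_at last. Errors after ± are SDs over n = 3 arrays. Integrity ratios were compared with an exact permutation test (scipy 1.17.1). On simulated data for the 27022 probe sets, limma recovered 63% of 100 differences of 0.5 and 93% of 100 differences of 1, with 3.7% false among those called. All other simulated probe sets were unchanged and their noise was independent, whereas 53.9% passed in the data. These rates therefore do not give the error of the calls reported here.

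The genes and lists were chosen with earlier results of these data known. Of 154 genes on the 7 pathway lists, 17 have no named probe set and are not analysed here, and 28 were left out as low. The text names every probe set of the 10 genes, up to 3 genes per direction of each list with the smallest p among those without overlap, all fat cell markers and the 3 nearest patterns to Cebpa; further genes named by their step or role were chosen after their values were seen. Alternatives changed the filter, the scaling, the variance model, the probe set per gene, a replicate block and each array in turn. LncMyoD was matched to no probe set and is not analysed here, so the groups rest on the labels.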

Additional observations from a re-analysis of the deposited data

How the results depend on the processing

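Counts over all probe sets, the differences of the 11 tested probe sets and of the genes named by rule were recomputed under 12 alternatives, and the pathway lists under 2 more. The 9 dim probe sets, the marker counts, the integrity ratios and the nearest patterns were not carried through them. The count past the threshold among the 11, on which the genes were chosen, was 8, or 7 to 8 with 1 array left out, and nothing is read from it. The number of all probe sets past it, 14566, ran from 12642 to 14942 with 1 array left out and from 13557 to 15351 otherwise. Centring turned its split from 56.4% higher to 45.0%, and quantile normalization to 52.0%. Small counts moved most. For C/EBP relatives that fell, 2, it was 1 without probe sets ending in _x_at or _s_at. For droplet and lipolysis genes that fell, 1, it was 0 with no filter, 3 with centring, 4 with probe sets averaged and 0 to 2 with 1 array left out (0 without shRNA array 3 or control 3, 2 without shRNA array 2). For genes responsive to C/EBPβ and C/EBPδ that fell, 2, it was 1 without a variance trend and 1 to 2 with 1 array left out (1 without control 1 or shRNA array 3). Trib2 dropped out of the C/EBP relatives because its only tested probe set ends in _s_at. The call lost with no filter, and without shRNA array 3 or control 3, was that of Pnpla3. The call lost without a variance trend, and without control 1 or shRNA array 3, was that of Sod2. The causes of the other changes were not tested. Same-numbered arrays did not deviate together (r of -0.134, -0.0616 and 0.0307), and pairs with different numbers ran from -0.107 to 0.137. With 3 arrays per group these values cannot decide whether same-numbered arrays share an animal, culture or batch, and the labels do not say. With the replicate number as a block 13646 probe sets passed, and the droplet and lipolysis genes that fell numbered 2. Signals under 6.5 were not tested, and whether they lay above background was not measured.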
